A study of Mus musculus with 12 samples.

Results

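The suppressor of cytokine signalling (SOCS) family comprises Socs1, Socs2, Socs3, Socs4, Socs5, Socs6, Socs7 and Cish. All probe sets that the annotation of the Affymetrix Mouse430_2 array assigns to exactly 1 of these 8 genes were taken, which gave 24 of 45037 probe sets. Of these, 21 passed a filter that kept the 27022 probe sets in the upper 60% by mean level over all arrays, and each of the 8 genes had at least 1 probe set that passed. The 3 probe sets below the filter were 1441476_at for Socs2, 1452764_at for Socs6 and 1438492_at for Socs7.

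The study profiled RNA from 4 kinds of T cell in an autoimmune model of brain inflammation, with 3 arrays per cell type, all from mice of the C57BL/10.RIII background. FoxA1Treg cells take their name from FoxA1, a forkhead transcription factor. The iFoxA1Treg group was titled IFN-beta induced and gated CD4hi,PD-L1hi. The nFoxA1Treg group carried the same gate and was titled neuron induced, although its cell type label reads natural FoxA1Treg. The Treg group was gated CD4+,TGFbeta+, and the EncT group held encephalitogenic T cells, CD4+ cells able to cause the disease, with no second surface marker in the label. The labels give no age, sex, dose or time, and no allele other than the strain, which all 4 groups share. They do not say whether the 3 arrays of a group came from separate animals or cultures, so the p-values measure the spread between these samples only, which may be technical. With 3 arrays in a group, precision is limited throughout.

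Many cytokine receptors have no enzyme of their own and signal through bound Janus kinases (JAKs), which activate STAT transcription factors. STATs switch on SOCS genes among their targets, and the SOCS proteins then bind the receptor or the kinase through an SH2 domain and dampen the signal, a negative feedback loop. Through the SOCS box, a short C-terminal motif, they also recruit an elongin and cullin ubiquitin ligase. In T cells, Socs1 is known for restraining interferon gamma and interleukin 2 signals, Socs3 for restraining signals through the gp130 receptor chain, and Cish and Socs2 as STAT5 targets. Socs2 is best known as a brake on growth hormone receptor signalling. Socs4 and Socs5 have been linked to the epidermal growth factor receptor, and Socs6 and Socs7 to receptor tyrosine kinase and insulin signalling.

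Promoter windows were available for 4 of the 8 members in the RefSeq set used here (build GRCm38.p6), namely Socs1, Socs3, Socs4 and Cish. The windows searched ran from 250 bases before to 50 bases after the gene start. They were searched for TTCNNNGAA, the spaced palindrome that STAT dimers are known to bind and that reads the same on both strands, and on both strands for a GAAA repeat, which is GAAA and again GAAA with 2 bases of any kind between them, as bound by interferon regulatory factors. Over all 32851 promoters of the same length, 8.3% held TTCNNNGAA and 3.44% held the GAAA repeat. The 3 windows below held a match and belong to the members that respond to cytokines through STATs. They are printed 5′ to 3′ on the gene's strand, up to 30 bases after the start, with the matched letters in capitals. The windows lie at chr16:10785507-10785786 on the minus strand for Socs1, chr11:117969337-117969616 on the minus strand for Socs3, and chr9:107296409-107296688 on the plus strand for Cish.
Socs1: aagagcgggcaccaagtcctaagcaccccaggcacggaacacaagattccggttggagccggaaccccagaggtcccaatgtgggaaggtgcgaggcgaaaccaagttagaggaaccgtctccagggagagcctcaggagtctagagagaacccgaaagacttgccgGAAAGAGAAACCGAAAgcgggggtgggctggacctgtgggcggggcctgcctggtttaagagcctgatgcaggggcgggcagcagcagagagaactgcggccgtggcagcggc
Socs3: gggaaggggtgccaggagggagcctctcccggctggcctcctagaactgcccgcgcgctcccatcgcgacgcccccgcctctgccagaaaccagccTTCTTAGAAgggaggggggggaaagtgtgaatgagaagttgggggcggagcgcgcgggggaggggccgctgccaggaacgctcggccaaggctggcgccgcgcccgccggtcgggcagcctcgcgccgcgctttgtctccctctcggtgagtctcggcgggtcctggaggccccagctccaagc
Cish: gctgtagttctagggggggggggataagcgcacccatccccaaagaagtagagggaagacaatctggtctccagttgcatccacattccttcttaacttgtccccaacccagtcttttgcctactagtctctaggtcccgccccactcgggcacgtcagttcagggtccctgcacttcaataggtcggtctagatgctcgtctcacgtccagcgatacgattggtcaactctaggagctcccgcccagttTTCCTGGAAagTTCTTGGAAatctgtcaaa
Socs1 held 2 overlapping matches to the GAAA repeat, whose first bases lie 83 and 77 bases before the start, and none to TTCNNNGAA. Socs3 held 1 match to TTCNNNGAA, 154 bases before the start. Cish held 2 matches to TTCNNNGAA, at bases 1 and 12 of the annotated transcript. The Socs4 window held neither set of letters. A match describes the letters in these windows and was not tied to any measurement of binding.

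The 3 iFoxA1Treg arrays were unlike the rest. Over the probe sets that passed the filter they correlated with the other arrays at 0.749 to 0.795, whereas arrays of different groups among nFoxA1Treg, Treg and EncT correlated at 0.967 to 0.991. Cd4 averaged 4.24 ± 0.10 in iFoxA1Treg arrays, 10.44 ± 0.07 in nFoxA1Treg, 10.39 ± 0.06 in Treg and 10.57 ± 0.02 in EncT arrays (normalized log2 values, SD, n = 3 each), which goes against the CD4hi label. Taking every marker on the array, whether or not it passed the filter, the mean was lower in iFoxA1Treg than in EncT arrays for 10 of 10 T cell markers and higher for 9 of 9 B cell markers, 10 of 10 macrophage and monocyte markers, 7 of 8 dendritic cell markers, 6 of 7 CD8 T and NK cell markers and 5 of 6 neutrophil, mast cell and erythroid markers. The log2 of the summed level of the T cell markers was 12.36 to 12.45 in iFoxA1Treg arrays and 14.48 to 14.65 in the other 9. For the B cell markers it was 14.89 to 15.02 against 7.39 to 8.72, and for the macrophage and monocyte markers 14.30 to 14.31 against 10.35 to 11.58. For the neutrophil, mast cell and erythroid markers it was 14.46 to 14.49 against 6.36 to 9.59, for the dendritic cell markers 13.04 to 13.09 against 7.92 to 9.11, and for the CD8 T and NK cell markers 10.10 to 10.13 against 8.70 to 9.69. S100a8 and S100a9, abundant neutrophil transcripts, averaged 13.48 and 13.40 in iFoxA1Treg arrays and lay below 0 on average in each of the other groups. Xist, the RNA that coats the silenced X in female cells, averaged 2.11 ± 0.85 in iFoxA1Treg arrays, 11.47 ± 0.27 in nFoxA1Treg, 11.52 ± 0.27 in Treg and 11.07 ± 0.44 in EncT arrays (SD, n = 3 each). Every difference that involves the iFoxA1Treg arrays is therefore reported for the arrays so labelled, and cell type, sex and treatment cannot be told apart in it. In bulk RNA, a difference in the share of a cell type and a difference in RNA per cell also cannot be told apart. The genes behind the other names and gates also did not follow the labels throughout. Cd274, which encodes the gated PD-L1, averaged 7.34 ± 0.13 in nFoxA1Treg arrays, gated PD-L1hi, 7.31 ± 0.04 in Treg and 7.63 ± 0.16 in EncT arrays, although it was 10.01 ± 0.04 in iFoxA1Treg arrays (SD, n = 3 each). Tgfb1 averaged 9.88 ± 0.10 in Treg arrays, gated TGFbeta+, and 9.88 ± 0.27 in EncT arrays (SD, n = 3 each). Foxp3, which marks regulatory T cells, lay below the filter, at 5.22 ± 0.18 in iFoxA1Treg, 2.55 ± 0.95 in nFoxA1Treg, 2.77 ± 0.40 in Treg and 1.66 ± 1.85 in EncT arrays (SD, n = 3 each). Foxa1 itself had no probe set above the filter. The gates were set on protein, and these values are RNA.

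Among the 3 groups that kept their T cell markers, both regulatory T cell groups had less Socs1 and Socs5 transcript signal than encephalitogenic T cells. Smaller falls passed the test for 1 probe set each of Socs4 and Socs7, while Socs3, Cish, Socs2 and Socs6 did not pass. A call is a limma moderated test with a Benjamini-Hochberg adjusted p under 0.05 over all 27022 probe sets. In nFoxA1Treg against EncT arrays, 4 of the 21 SOCS probe sets (19.0%) were called, all lower, where 17.1% of all probe sets were called in either direction and 8.67% were called lower. In Treg against EncT arrays the count was also 4 of 21, all lower, against 14.0% of all probe sets in either direction and 7.69% lower. These totals are near the background, so the overall number of calls is no feature of the family. With 1 probe set per gene, the brightest, 4 of 8 genes were lower and 0 higher in either comparison, with median log2 differences of -0.38 and -0.45, where the median over all 12609 genes was -0.0045 and -0.0038 and 10.3% and 9.29% of genes were lower. Over the 21 SOCS probe sets the median differences were -0.12 and -0.08, so the medians of the genes depend on taking the brightest. Both comparisons use the same 3 EncT arrays, so the 2 counts are not independent of each other. Some markers of other cells were also lower. Over all markers on the array the mean was below that of EncT for 8 of 9 B cell markers in nFoxA1Treg and 7 of 9 in Treg, for 10 of 10 macrophage and monocyte markers in both, and for 5 of 8 dendritic cell markers in nFoxA1Treg and 4 of 8 in Treg. For CD8 T and NK cell markers it was 4 of 7 and 6 of 7, and for neutrophil, mast cell and erythroid markers 3 of 6 in both. The log2 of the summed B cell markers was 7.39 to 7.84 in nFoxA1Treg, 7.79 to 7.98 in Treg and 8.37 to 8.72 in EncT arrays. That of the macrophage markers was 10.35 to 11.19 in nFoxA1Treg, 10.96 to 11.19 in Treg and 10.92 to 11.58 in EncT arrays, and that of the dendritic cell markers 7.92 to 8.54 in nFoxA1Treg, 8.49 to 8.69 in Treg and 8.90 to 9.11 in EncT arrays. Markers of other cells that were called lower with and without the iFoxA1Treg arrays in both comparisons were Ighm, the immunoglobulin heavy chain (-1.71 in nFoxA1Treg and -1.09 in Treg minus EncT), H2-Aa, an MHC class II chain (-2.08 and -0.90), and Klrd1, an NK receptor chain (-0.91 and -0.92). Cd74, the class II invariant chain, was called at -2.17 and -1.04, and its Treg call was lost without the iFoxA1Treg arrays (-1.03, limma adjusted p = 0.0598). Of the macrophage markers, Cd14 was called at -0.49 and -0.50 and was not called without those arrays, at -0.50 and -0.51 (limma adjusted p 0.0591 and 0.0595). Cd79b, Ms4a1, Blnk, Lyz2, Cybb and Eomes passed the filter only through their iFoxA1Treg values and are given as levels. Ms4a1 averaged 2.92 in nFoxA1Treg, 3.92 in Treg and 4.70 in EncT arrays. In the same order Blnk averaged 2.72, 3.24 and 3.94, and Eomes 3.88, 3.79 and 3.97. Lyz2 averaged 1.25 in nFoxA1Treg, 2.59 in Treg and 5.18 in EncT arrays, and Cybb 0.25 in nFoxA1Treg, 3.29 in Treg and 5.11 in EncT arrays. Cd79b, at -0.35 in nFoxA1Treg arrays, was like Cybb near 0 there. Ccr7, in the dendritic cell list, was called higher, by 0.38 in nFoxA1Treg and by 0.53 in Treg, and its nFoxA1Treg call was lost without the iFoxA1Treg arrays (limma adjusted p = 0.0800). Cpa3, a mast cell marker, was called in nFoxA1Treg only, at -2.82, with an EncT SD of 2.17. Without the iFoxA1Treg arrays it was not called (limma adjusted p = 0.0669). Neuron marker means were higher for 4 of 8 in nFoxA1Treg and 5 of 8 in Treg. Of these, Gap43 was called only without those arrays, at 0.48 and 0.41 (limma adjusted p 0.0232 and 0.0497). T cell marker means were lower for 9 of 10 and 6 of 10, and Zap70 was called at -0.23 in both. The part of other cells in the SOCS differences was not tested.

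**Figure D1:**
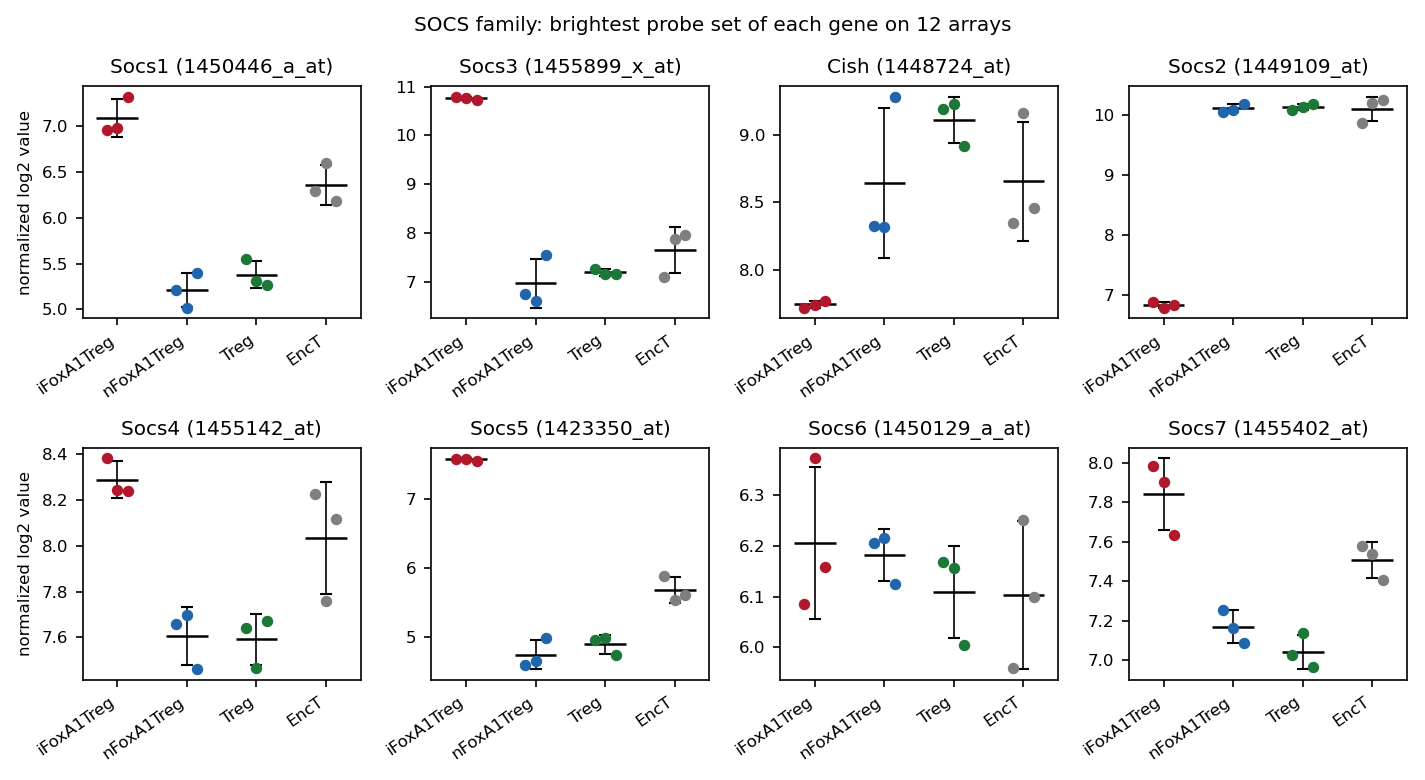
Normalized log2 values of the brightest probe set of each SOCS family gene (vertical axes, a separate range in each panel) on the 12 arrays, by group. Points are arrays, the long bar is the group mean and the error bar is 1 SD (n = 3). The iFoxA1Treg arrays lie outside the range of the other 9 for Socs1, Socs3, Cish, Socs2, Socs4, Socs5 and Socs7. EncT arrays lie above both regulatory groups for Socs1, Socs4, Socs5 and Socs7. Over all probe sets that passed the filter, 71.6% did not overlap between iFoxA1Treg and EncT arrays. The share was 76.2% for iFoxA1Treg against nFoxA1Treg and also against Treg. Against EncT it was 32.5% for nFoxA1Treg and 32.1% for Treg.

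Socs1, a direct inhibitor of JAK kinase activity, was measured by probe set 1450446_a_at. Its normalized log2 values were 6.96, 6.98 and 7.32 on iFoxA1Treg arrays. They were 5.21, 5.02 and 5.39 on nFoxA1Treg arrays, 5.55, 5.31 and 5.27 on Treg arrays, and 6.29, 6.60 and 6.18 on EncT arrays. The nFoxA1Treg and Treg values intermingle and all 6 lie below the lowest EncT array, while all 3 iFoxA1Treg values lie above the highest. The difference was -1.15 for nFoxA1Treg minus EncT (SE 0.15, 2.22-fold lower, limma adjusted p = 4.18e-04) and -0.98 for Treg minus EncT (SE 0.15, 1.97-fold lower, limma adjusted p = 0.00142). Between nFoxA1Treg and Treg it was -0.17, with a 95% interval of -0.49 to 0.15, and did not pass. The order of group means was thus iFoxA1Treg, EncT, Treg and nFoxA1Treg, with the last neighbours not separated beyond their spread. The interval still allows a difference of 0.49 on the log2 scale between them.

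Socs5, which is linked to interleukin 4 receptor and growth factor receptor signalling, had 2 probe sets that gave unlike results. With 1423350_at, the values were 7.58, 7.58 and 7.55 on iFoxA1Treg arrays, 4.58, 4.65 and 4.98 on nFoxA1Treg arrays, 4.95, 4.98 and 4.73 on Treg arrays, and 5.88, 5.53 and 5.61 on EncT arrays. The 6 regulatory T cell arrays again lie below all 3 EncT arrays without overlap. The difference from EncT was -0.93 in nFoxA1Treg (SE 0.14, limma adjusted p = 8.65e-04) and -0.79 in Treg (SE 0.14, limma adjusted p = 0.00303). With the other probe set, 1423349_at, the 2 differences were -0.17 (95% interval -0.47 to 0.14) and -0.08 (-0.39 to 0.22). Neither passed the test, so the lower Socs5 signal rests on 1 of its 2 probe sets.

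Socs4 and Socs7 showed smaller differences that also depended on the probe set. With 1455142_at, Socs4 read 8.38, 8.24 and 8.24 on iFoxA1Treg arrays, 7.66, 7.70 and 7.46 on nFoxA1Treg arrays, 7.64, 7.47 and 7.67 on Treg arrays, and 8.22, 7.76 and 8.12 on EncT arrays. The nFoxA1Treg and Treg arrays lie just below the lowest EncT array. The difference from EncT was -0.43 in nFoxA1Treg (SE 0.11, limma adjusted p = 0.0207) and -0.44 in Treg (SE 0.11, limma adjusted p = 0.0211). The other 3 Socs4 probe sets were not called and had positive differences, of 0.19 to 0.68 in nFoxA1Treg and 0.18 to 0.36 in Treg minus EncT. The largest of these, 0.68 for 1421274_at, had a limma adjusted p of 0.0768, and without the iFoxA1Treg arrays it was called, at 0.69 with a limma adjusted p of 0.0363. Socs4 therefore has no direction that its probe sets share.

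With 1455402_at, Socs7 read 7.98, 7.91 and 7.63 on iFoxA1Treg arrays, 7.25, 7.16 and 7.09 on nFoxA1Treg arrays, 7.02, 7.13 and 6.96 on Treg arrays, and 7.58, 7.54 and 7.41 on EncT arrays. These values leave a clear gap between the regulatory groups and EncT. The difference from EncT was -0.34 in nFoxA1Treg (SE 0.10, limma adjusted p = 0.0290) and -0.47 in Treg (SE 0.10, limma adjusted p = 0.00742). The Socs7 probe sets 1434834_at and 1420766_at were not called, with differences of -0.12 and 0.04 in nFoxA1Treg and -0.20 and -0.01 in Treg. Calls for Socs4 1455142_at and Socs7 1455402_at in nFoxA1Treg were lost when a single array was left out. For Socs4 this held without EncT replicate 1, EncT replicate 3 or nFoxA1Treg replicate 3 (adjusted p 0.0691 to 0.0760), and for Socs7 without EncT replicate 1 or 2 or nFoxA1Treg replicate 2 or 3 (0.0527 to 0.0877). In Treg, Socs4 lost its call without EncT replicate 1 or 3 or Treg replicate 2 (0.0713 to 0.0943). The calls for Socs1 and for Socs5 1423350_at stood in every alternative run.

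**Figure D2:**
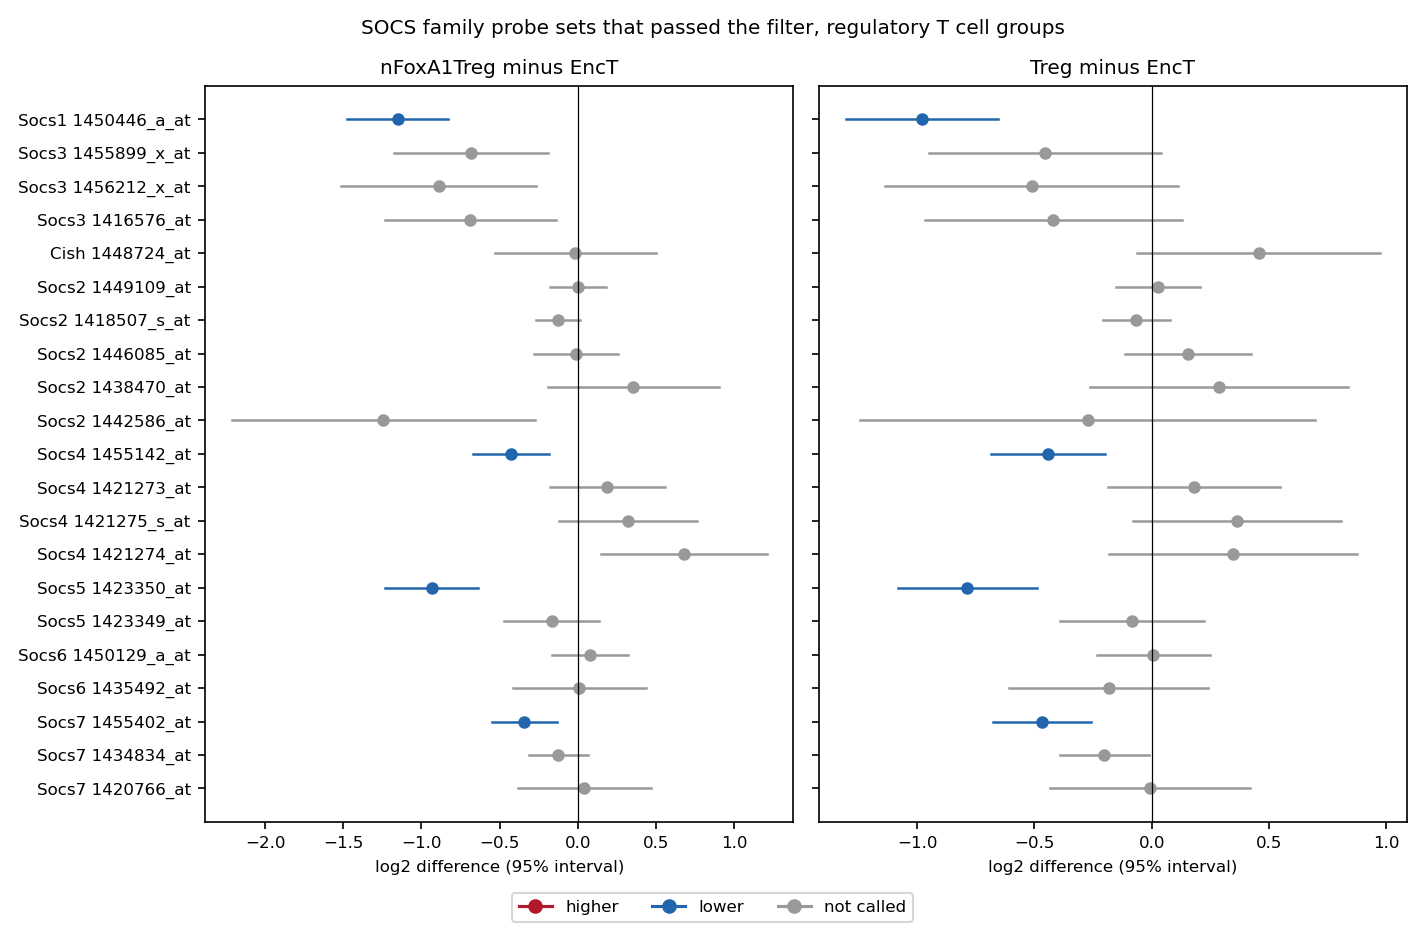
Log2 differences with 95% intervals (horizontal axes) for the 21 SOCS family probe sets that passed the filter, in nFoxA1Treg minus EncT and in Treg minus EncT. Coloured points passed the test over all probe sets. The 4 called probe sets in each panel are those of Socs1, Socs4 1455142_at, Socs5 1423350_at and Socs7 1455402_at, and all lie left of 0.

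Socs3, a feedback inhibitor of interleukin 6 family cytokines and STAT3, had 3 probe sets. With 1455899_x_at it read 10.79, 10.78 and 10.73 on iFoxA1Treg arrays, 6.76, 6.62 and 7.54 on nFoxA1Treg arrays, 7.28, 7.16 and 7.16 on Treg arrays, and 7.11, 7.89 and 7.96 on EncT arrays. nFoxA1Treg replicate 3 and EncT replicate 1 lie within the range of the other group. All 3 probe sets gave negative differences in nFoxA1Treg minus EncT, of -0.68 for 1455899_x_at, -0.89 for 1456212_x_at and -0.69 for 1416576_at, and none passed (limma adjusted p 0.0585, 0.0515 and 0.0836). Without EncT replicate 1 all 3 passed, with differences of -0.96, -1.15 and -0.99 (limma adjusted p 0.00831, 0.0232 and 0.00962). Without nFoxA1Treg replicate 3 all 3 also passed (limma adjusted p 0.00674, 0.00356 and 0.0335). With every array kept, the processing also mattered. On the values as deposited, 1455899_x_at and 1456212_x_at were called (limma adjusted p 0.0455 and 0.0383). Both were also called with log2(value + 16) (limma adjusted p 0.0469 and 0.0429). The same held with only the upper 40% of probe sets kept (0.0473 and 0.0415). With every array kept, 1416576_at was called only under array weights (2.20e-04). A single array on either side, or the processing, thus decides this comparison. In Treg minus EncT the differences were -0.46, -0.51 and -0.42, with limma adjusted p of 0.217, 0.276 and 0.311. Without EncT replicate 1, 1455899_x_at and 1416576_at were called there too, both at -0.73 (limma adjusted p 0.0348 and 0.0453). Probe sets ending in _x_at can bind related transcripts, and 1416576_at, which has no such suffix, gave values of the same direction.

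Cish, a STAT5 target that acts on interleukin 2 receptor and T cell receptor signalling, overlapped among the T cell groups. Its probe set 1448724_at read 7.72, 7.74 and 7.77 on iFoxA1Treg arrays, 8.32, 8.32 and 9.28 on nFoxA1Treg arrays, 9.19, 9.23 and 8.92 on Treg arrays, and 8.35, 9.16 and 8.46 on EncT arrays. A high array stands in both the nFoxA1Treg and the EncT group, and the 3 groups overlap. The difference was -0.01 for nFoxA1Treg minus EncT (95% interval -0.53 to 0.50), 0.46 for Treg minus EncT (-0.06 to 0.97, limma adjusted p = 0.239) and -0.47 for nFoxA1Treg minus Treg (-0.99 to 0.05). These intervals are wide, and the data do not show that the groups have equal Cish levels. Without EncT replicate 2, Cish was called higher in Treg than in EncT (0.71, limma adjusted p = 0.0439).

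Socs2, the other STAT5 target of the family, varied little across the T cell groups with its brightest probe set. With 1449109_at it read 6.89, 6.79 and 6.84 on iFoxA1Treg arrays, 10.06, 10.10 and 10.19 on nFoxA1Treg arrays, 10.09, 10.14 and 10.19 on Treg arrays, and 9.88, 10.21 and 10.25 on EncT arrays. The 9 arrays of the last 3 groups share 1 narrow range. The difference was 0.00 in nFoxA1Treg minus EncT (95% interval -0.17 to 0.18) and 0.03 in Treg minus EncT (-0.15 to 0.21), which bounds any change of this probe set to 0.21 on the log2 scale. The dimmer 1442586_at differed by -1.24 in nFoxA1Treg minus EncT with an SE of 0.45 and was not called (limma adjusted p = 0.0766). It was called with log2(value + 16), at -0.64, and with array weights, at -1.71 (limma adjusted p 0.0377 and 0.00465). Its nFoxA1Treg values of 4.50, 2.47 and 4.38 have an SD of 1.14 and include 1 far lower array. The remaining passing Socs2 probe sets, 1418507_s_at, 1446085_at and 1438470_at, had differences of -0.13 to 0.36 across both comparisons, and none was called. With array weights 1418507_s_at was called in nFoxA1Treg minus EncT, at -0.21 (limma adjusted p = 0.00183). Socs6 probe sets 1450129_a_at and 1435492_at differed by 0.08 and 0.01 in nFoxA1Treg and by 0.01 and -0.18 in Treg, also without a call.

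Between nFoxA1Treg and Treg, 0 of the 21 SOCS probe sets were called by limma, where 0.00740% of all probe sets, 2 in number, were called. At an unadjusted limma p under 0.05, 1 member probe set, Socs2 1442586_at, and 933 of all probe sets would have passed. The brightest probe sets of the 8 genes differed by -0.47 for Cish, -0.23 for Socs3, -0.17 for Socs1, -0.15 for Socs5, -0.02 for Socs2, 0.01 for Socs4, 0.07 for Socs6 and 0.13 for Socs7. The family was therefore not separable between these groups at 3 arrays each, which is a statement about the precision and not about equality.

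The arrays labelled iFoxA1Treg had far more Socs3 and Socs5 signal, more Socs1 and Socs7 signal, and far less Socs2 and less Cish signal than EncT arrays. In iFoxA1Treg against EncT arrays, 15 of 21 SOCS probe sets (71.4%) were called, 9 higher and 6 lower, where 70.2% of all probe sets were called, 30.5% higher and 39.7% lower. Against nFoxA1Treg and against Treg the counts were 15 of 21 each, 10 higher and 5 lower, where 72.2% and 71.7% of all probe sets were called (30.9% higher and 41.3% lower against nFoxA1Treg, 31.2% and 40.5% against Treg). The number of calls is that of the whole array and says nothing particular about the family. The 3 comparisons share the iFoxA1Treg arrays and the differences below move with the marker sums given above, whose part in them was not tested.

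Socs3 was higher in iFoxA1Treg than in EncT by 3.11 with 1455899_x_at (SE 0.23, 8.63-fold, limma adjusted p = 4.95e-08), by 3.20 with 1456212_x_at and by 2.94 with 1416576_at. Against nFoxA1Treg the same 3 probe sets gave 3.79, 4.09 and 3.63, and against Treg 3.57, 3.72 and 3.36. All 3 probe sets and all 9 arrays of the other groups give the same ordering, with no overlap. Socs2 went the other way, by -3.71 with 1418507_s_at (SE 0.07, 13.1-fold lower, limma adjusted p = 5.91e-14), -3.27 with 1449109_at and -3.28 with 1446085_at in iFoxA1Treg minus EncT. The dimmer Socs2 probe sets 1438470_at and 1442586_at differed by -1.47 and -1.25, and the call for 1442586_at was lost without EncT replicate 3 or iFoxA1Treg replicate 3. Against nFoxA1Treg and Treg, 1442586_at differed by -0.01 (95% interval -0.98 to 0.96) and by -0.98 (limma adjusted p = 0.0648), neither of them called. Cish, with Socs2 among the STAT5 targets, was lower by -0.91 against EncT (SE 0.24, 1.88-fold lower, limma adjusted p = 0.00410), -0.90 against nFoxA1Treg and -1.37 against Treg.

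Socs5 was higher in iFoxA1Treg than in EncT with both probe sets, by 1.90 with 1423350_at (SE 0.14, 3.73-fold, limma adjusted p = 4.23e-08) and by 1.05 with 1423349_at (SE 0.14, 2.07-fold, limma adjusted p = 1.90e-05). Socs1 was higher by 0.73 against EncT (SE 0.15, limma adjusted p = 7.03e-04), by 1.88 against nFoxA1Treg and by 1.71 against Treg. Socs7 was higher by 0.79 with 1434834_at (limma adjusted p = 2.92e-06) and by 0.33 with 1455402_at (limma adjusted p = 0.00737). On the values as deposited the smaller of these was 0.14 with a limma adjusted p of 0.289. Socs7 1420766_at averaged 5.55 in iFoxA1Treg and 5.12 in EncT arrays and was not called. With array weights this probe set was called, at 0.71 (limma adjusted p = 0.00180). Socs6 gave unlike answers, with 1.23 for 1435492_at (SE 0.20, limma adjusted p = 8.61e-05) and 0.10 for 1450129_a_at (95% interval -0.14 to 0.34). Socs4 was not called against EncT with any of its 4 probe sets, at 0.13 to 0.29, although 1455142_at was higher than in nFoxA1Treg by 0.68 and than in Treg by 0.70. The probe sets below the filter, fitted without it, had no call in any of the 6 comparisons by limma, and 0 of these 18 results had an unadjusted p under 0.05.

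**Figure D3:**
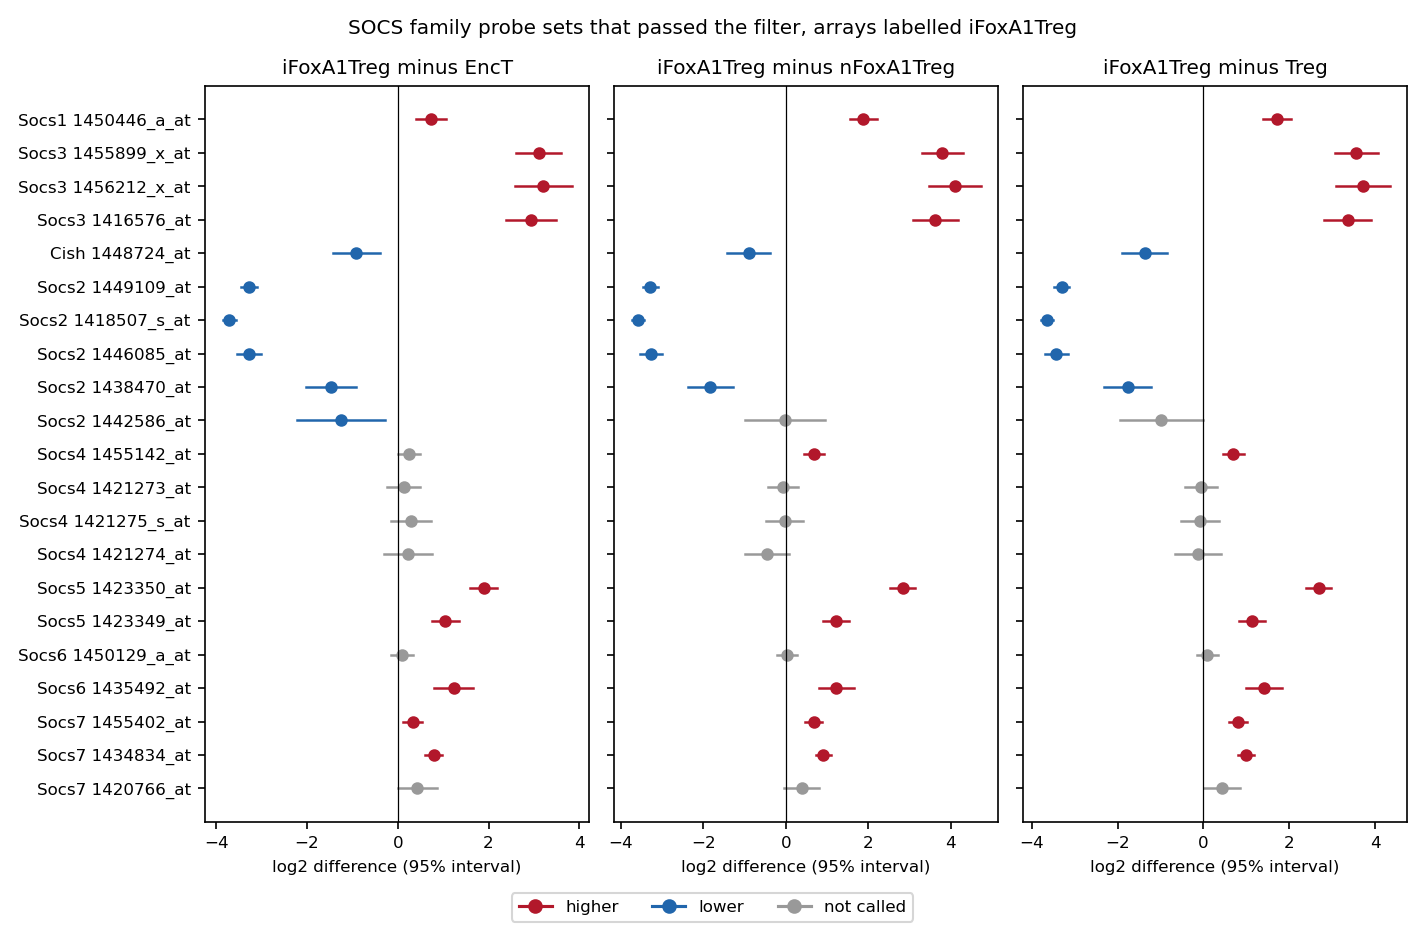
Log2 differences with 95% intervals (horizontal axes) for the 21 SOCS family probe sets that passed the filter, in iFoxA1Treg minus EncT, nFoxA1Treg and Treg. Red points were called higher, blue points lower and grey points not called. The 3 Socs3 probe sets lie far right and the Socs2 probe sets 1418507_s_at, 1449109_at and 1446085_at far left in all panels, which share the iFoxA1Treg arrays, whereas Socs2 1442586_at lies near 0 against nFoxA1Treg.

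The ubiquitin ligase parts that SOCS proteins recruit gave no call among the T cell groups. Of the 6 genes for the elongins, cullins and RING proteins that SOCS box proteins bind, 0 were called in nFoxA1Treg or Treg against EncT by limma, and 0 had an unadjusted p under 0.05, where 18.1% and 14.7% of 12609 genes were called at 1 probe set per gene. Elob, which encodes elongin B, was lower in iFoxA1Treg than in EncT by -0.69 (SE 0.05), and the other 5 were not called there. In that comparison 71.7% of all genes were called, and 38.0% of all genes were lower. Of 22 other genes for SOCS box proteins on the array, 14 passed the filter. Of these, 2 were lower and 0 higher in either regulatory group than in EncT, where 10.3% and 9.29% of all genes were lower. The count is near the background and says nothing particular about these genes. Rab40c, a small GTPase with a SOCS box, was lower by -0.36 in nFoxA1Treg and by -0.49 in Treg.

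Several JAK and STAT genes, whose products are the kinases that SOCS proteins inhibit and the factors those kinases activate, were lower in the regulatory groups. Of 10 measured genes, 0 were higher and 4 lower in either regulatory group than in EncT, with medians of -0.18 in nFoxA1Treg and -0.22 in Treg, where 10.3% and 9.29% of all genes were lower. In nFoxA1Treg, the members with the smallest adjusted p were Stat3 (-0.36, SE 0.06), Stat6 (-0.28, SE 0.06) and Stat5b (-0.19, SE 0.05), and in Treg they read -0.25, -0.23 and -0.28. Jak3, the kinase bound to the common gamma chain, averaged 6.11 ± 0.10 in iFoxA1Treg and 9.20 ± 0.13 in EncT arrays (SD, n = 3 each), a difference of -3.09. Of 14 other negative regulators of the pathway, such as phosphatases and PIAS proteins, 4 were lower in nFoxA1Treg and 3 in Treg than in EncT. In both, 0 were higher, beside the same 10.3% and 9.29% of all genes lower. Of the 14, Usp18 and Sh2b3 passed the filter only through their iFoxA1Treg values. Bcl6, a transcriptional repressor that counters STAT5 at shared sites, fell by 0.70 and by 0.75, and Ptpn6, the phosphatase SHP-1, fell by 0.52 and by 0.45.

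Upstream of the family, 19 cytokine receptor chains passed the filter. In nFoxA1Treg against EncT arrays 1 was higher and 6 lower (median -0.20), and in Treg 1 was higher and 4 lower (median -0.11), where 18.1% and 14.7% of all genes were called and 10.3% and 9.29% were lower. Of the 19 chains, Ifngr2, Il6ra, Csf2rb and Ghr passed the filter only through their iFoxA1Treg values. Without the iFoxA1Treg arrays 16 chains passed, with 1 higher and 5 lower in nFoxA1Treg and 0 higher and 4 lower in Treg. Il7r, the interleukin 7 receptor chain, was lower by -0.80 in nFoxA1Treg and by -0.40 in Treg, and Il10rb by -0.33 and -0.22. Csf2rb, the shared beta chain of the GM-CSF receptor, averaged 1.72 ± 0.96 in nFoxA1Treg, 4.12 ± 0.29 in Treg and 5.58 ± 1.01 in EncT arrays (SD, n = 3 each), levels at which noise is large. Of 22 cytokine ligands only 7 passed the filter. Csf2 and Osm, which encode GM-CSF and oncostatin M, were lower by -2.06 and -1.12 in nFoxA1Treg and by -1.45 and -0.80 in Treg, and 0 ligands were higher.

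Interferon gamma targets, whose signal SOCS1 is known to restrain, included more lower than higher genes in both regulatory groups. Of the 17 that passed the filter, 6 were lower and 1 higher in nFoxA1Treg than in EncT (median -0.28), and 5 were lower and 1 higher in Treg (median -0.26), where 10.3% and 9.29% of all genes were lower. Irgm2, an interferon-inducible GTPase, averaged 6.99 ± 0.16 in nFoxA1Treg, 7.14 ± 0.08 in Treg and 8.26 ± 0.41 in EncT arrays (SD, n = 3 each), with differences of -1.27 and -1.12 from EncT. Irf1, an interferon-induced transcription factor, differed by -0.59 and -0.62. Cxcl10 was the exception, higher in Treg than in EncT by 2.64 (SE 0.31, limma adjusted p = 3.35e-04). In iFoxA1Treg against EncT arrays 15 of the 17 were higher and 0 lower, with a median of 1.57, where 33.7% of all genes were higher. The 17 include Ciita, which passed the filter only through its iFoxA1Treg values. Cd274, which encodes PD-L1, was higher there by 2.38 (SE 0.08).

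Among 12 interleukin 2 and STAT5 targets, 5 were lower and 0 higher in either regulatory group than in EncT, with medians of -0.33 in nFoxA1Treg and -0.28 in Treg, beside 10.3% and 9.29% of all genes lower. Pim2, a survival kinase, fell by 0.97 and by 0.93, and Ccnd3, which encodes cyclin D3, fell by 0.48 and by 0.39. Cish and Socs2, STAT5 targets as well, were not called in these comparisons. In iFoxA1Treg against EncT arrays the list divided, with 6 higher and 5 lower, where 71.7% of all genes were called, 33.7% higher and 38.0% lower. Il2rb, the interleukin 2 receptor beta chain, fell by 2.69 there. Of 10 interleukin 6 and STAT3 targets, 3 were lower in nFoxA1Treg and 4 in Treg than in EncT, and 1, Fos, was higher in either, again beside 10.3% and 9.29% of all genes lower. Fos, a subunit of AP-1, averaged 9.44 ± 0.01 in iFoxA1Treg, 6.94 ± 0.31 in nFoxA1Treg, 6.86 ± 0.18 in Treg and 3.31 ± 0.85 in EncT arrays (SD, n = 3 each). Bcl3, an NF-kappaB cofactor, fell by 0.60 in nFoxA1Treg and by 0.57 in Treg. In nFoxA1Treg against Treg, 0 of the 104 genes measured across all the pathway lists were called by limma. That comparison called 1 of all 12609 genes (0.00793%), so the count says nothing particular about the lists. An unadjusted limma p under 0.05 was found for 6 of the 104 genes, beside 933 of all 27022 probe sets. Some genes stand in several lists, so the list counts are not independent. Stat3 is among the JAK and STAT genes and the STAT3 targets, and Osm among the ligands and the STAT5 targets. The marker differences given for nFoxA1Treg and Treg above accompany these lists too, and their part was not tested.

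**Figure D4:**
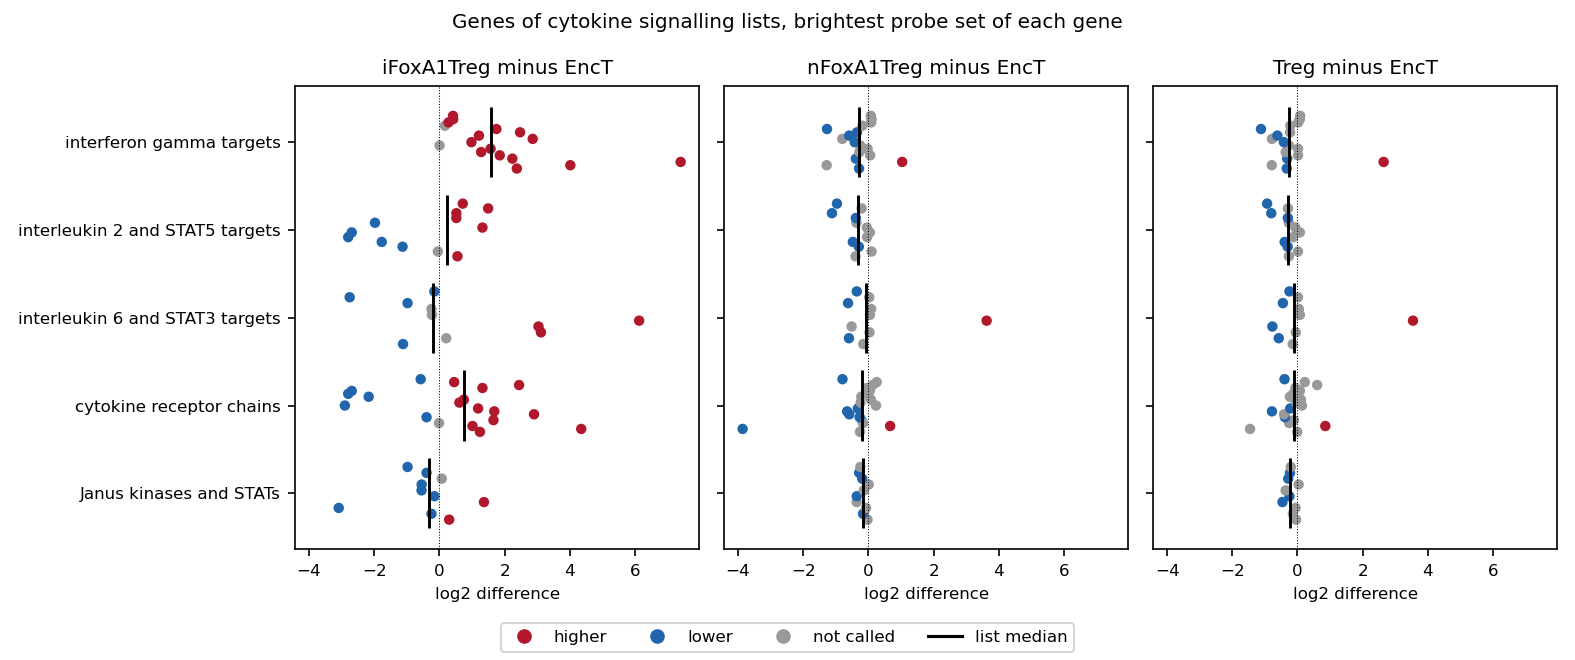
Log2 differences (horizontal axes) of genes in 5 cytokine signalling lists, 1 probe set per gene, in iFoxA1Treg, nFoxA1Treg and Treg minus EncT. Points are genes, coloured by call, and black bars are list medians. The interferon gamma targets have a median of 1.57 in the iFoxA1Treg panel, -0.28 in the nFoxA1Treg panel and -0.26 in the Treg panel.

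The genes whose values ran closest to each member were sought over the 9 arrays of nFoxA1Treg, Treg and EncT. Likeness was the root mean square difference between log2 values, each centred on its own mean, over 12608 other genes. Closest to Socs1 were Ptger2 (0.112) and Ptger4 (0.147), which encode prostaglandin E2 receptors, and Fasl (0.149), which encodes Fas ligand, beside a Socs1 SD of 0.56 over those arrays. Ptger2 averaged 7.76 in nFoxA1Treg, 7.98 in Treg and 8.99 in EncT arrays. Closest to Cish were Ctla2b (0.0605) and Ctla2a (0.0866), which encode related cathepsin inhibitors and may share probes, and Sbk1 (0.0938), beside a Cish SD of 0.43. These genes shared with Cish the high values on nFoxA1Treg replicate 3 and EncT replicate 2, so their likeness rests on differences within groups. Closest to Socs3 were Kyat1 (0.191), Kcnj8 (0.192) and A530088E08Rik (0.200), each at 4.23 to 5.42 by group mean in these groups. Closest to Socs2, which was nearly flat with an SD of 0.11, were Ogdh, Cyb561a3 and Acadl, a likeness of genes that barely varied.

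**Figure D5:**
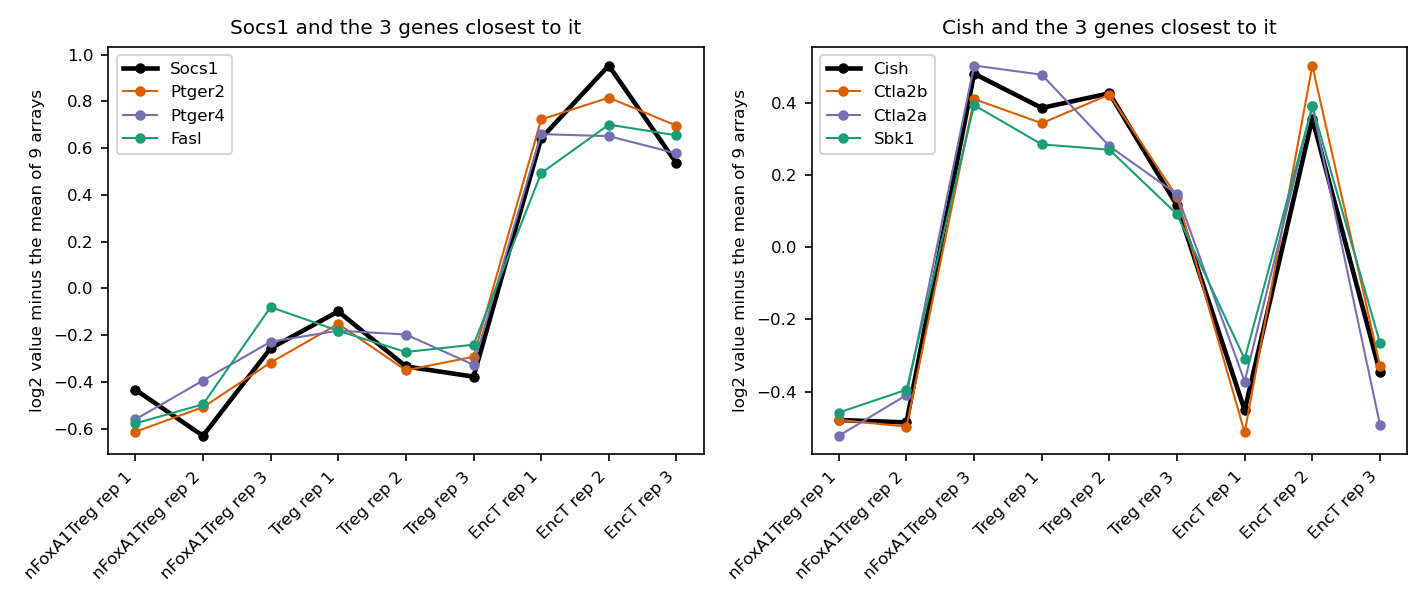
Log2 values minus the mean of 9 arrays (vertical axes) of Socs1 and Cish and the 3 genes closest to each, by array; lines join the arrays of a gene and imply no order. Socs1 and its neighbours are high on the 3 EncT arrays, and Cish and its neighbours are high on nFoxA1Treg replicate 3, the Treg arrays and EncT replicate 2.

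Over all 12 arrays the closest genes changed, since the iFoxA1Treg arrays then dominate. They were Pim2 (0.195), Zfp217 and Zbtb4 for Socs1, Cxcl3 (0.215), Zfp36 and Basp1 for Socs3, Tff1 (0.165), Pmm1 and Prnp for Cish, and Anapc11 (0.110), Lgals1 and Serpinb6a for Socs2. Pim2 averaged 8.11 in iFoxA1Treg, 6.43 in nFoxA1Treg, 6.47 in Treg and 7.40 in EncT arrays, the same order as Socs1 except that Treg and nFoxA1Treg nearly coincide. Zfp36, which encodes an mRNA decay factor, averaged 10.11 in iFoxA1Treg, 6.43 in nFoxA1Treg, 6.64 in Treg and 6.99 in EncT arrays, beside Socs3 at 10.76, 6.97, 7.20 and 7.65. The likeness is a description of these arrays.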

How the data were processed

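The 12 arrays were of type Mouse430_2, in 4 groups of 3. Per the labels' protocols, Trizol RNA was amplified by the 3′ one-cycle method. The submitters' processing notes name PLIER, a probe summary algorithm. Neither its version nor a scaling of arrays to each other is given in the sources used here. The deposited table holds log2 values for 45037 probe sets, a scale read from the values, in which dim probe sets run below 0. Of these probe sets 34945 had 1 gene, 932 several and 9160 none in the array annotation.

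Values were quantile normalized, and the upper 60% of probe sets by mean (a level of 4.05) were kept. Limma 3.58.1 in R 4.3.3 fitted 1 mean per group over 12 arrays (8 residual degrees of freedom), with eBayes and an intensity trend. The two-sided p-values were adjusted by Benjamini-Hochberg within each of 6 comparisons, each coded as the group named first minus the other. For gene lists, the brightest probe set stood for its gene. The script was tested on simulated data. Alternatives were the deposited scale, median centring, log2(value + 16), other filters, fewer groups, array weights, no trend, a replicate block and leaving out each array.

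The main fit did not pair the arrays by replicate number. With 3 arrays per group, the correlations given below cannot exclude a pairing. The members and lists were chosen with earlier results of these data known. Named in the text are all SOCS probe sets, up to 3 members of each list with the smallest adjusted p in a comparison (a few more list members were named after their values were seen), and the 3 closest genes. Promoters are RefSeq sequences of GRCm38.p6. No array coordinates were used, and proteins were not analysed here.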

Additional observations from a re-analysis of the deposited data

How the results depend on the processing

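Over 10 alternatives and 12 arrays left out in turn, no called SOCS result changed sign. Of the 21 SOCS probe sets, the number called in nFoxA1Treg against EncT was 7 with log2(value + 16), 2 with only the 2 groups compared in the fit, and 11 with array weights, where 36.9% of all probe sets were called, against 4 as reported. In Treg against EncT it was 9 with array weights. Apart from the 36.9%, no share of all probe sets is given beside these counts or those below. A change in them may therefore be that of the whole array. Leaving out 1 array gave 3 to 5 calls for nFoxA1Treg and 3 to 5 for Treg when set against EncT, and 0 for nFoxA1Treg set against Treg. For iFoxA1Treg it gave 14 to 17 against EncT, 15 to 16 against nFoxA1Treg and 15 to 16 against Treg. Without the iFoxA1Treg arrays the counts were 5, 4 and 0 among the other groups. Socs1 ranged from -1.24 to -0.89 in nFoxA1Treg minus EncT and from -1.07 to -0.77 in Treg minus EncT. The replicate block gave 5, 4 and 0 calls in the T cell comparisons and 16, 15 and 15 in those of iFoxA1Treg. It added Socs3 1455899_x_at in nFoxA1Treg against EncT (adjusted p 0.0498) and Socs4 1455142_at in iFoxA1Treg against EncT (0.0452). Deviations of arrays with the same number correlated at -0.189 to 0.207, and those with different numbers at -0.169 to 0.262. Of 12 arrays, 6 correlated best with their own number. Without the iFoxA1Treg arrays, an alternative applied to the gene lists after seeing the data, 0 macrophage markers were called, against 3 in nFoxA1Treg and 2 in Treg with them. Lyz2 and Cybb then fell below the filter, so they were not tested, and Cd14 kept its size at -0.50 and -0.51 but missed the threshold.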
